A study of Homo sapiens with 9 samples.

Results

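Neuropilins and plexins are the cell surface receptors of the semaphorins, and VEGFA, the vascular endothelial growth factor, shares the neuropilins with them. This account follows 10 genes of that system, NRP1, NRP2, PLXNA1, PLXNA2, PLXNA3, PLXND1, SEMA3A, SEMA3C, SEMA3F and VEGFA, taken by name from a table of 58735 genes. All 10 were found, each once. They were proposed with values of the same comparisons in view, so their levels and differences are given as a description. Where a fit over all genes places a member past its threshold, that is part of the description and no independent test.

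RNA was sequenced in H1299, an established human lung cancer line labelled as lung adenocarcinoma, in 3 groups of 3 libraries. Vector cells had the genotype wild type and had received the lentiCRISPR v2 plasmid by lentivirus. KO1 and KO2 had the genotype BCKDK knockout and are each a single clone, grown out by limiting dilution after CRISPR editing of BCKDK, the kinase that restrains branched-chain amino acid breakdown. Vector is not described as a clone, so effects of the editing and of cloning cannot be told apart. BCKDK knockout is thus represented by 2 clones. Whether replicate libraries stem from separate cultures is not labelled, and the p-values then reflect only library-to-library spread, which may be technical.

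Secreted class 3 semaphorins bind a neuropilin, which has little signalling of its own, and the neuropilin hands the signal to an A-type plexin, whose inner part switches off small GTPases and loosens adhesion. Different ligands prefer different receptors: SEMA3A acts mainly through NRP1, SEMA3F mainly through NRP2, and SEMA3C can use either. VEGFA binds neuropilins beside its kinase receptors. The system was worked out in growing axons and blood vessels, and tumour cells often carry parts of it.

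Recovered depth was 16002212 to 17090445 reads per library. BCKDK measured 12.9 to 17.5 FPKM in Vector, 1.67 to 2.06 in KO1 and 0.287 to 0.628 in KO2, where FPKM is a level corrected for exon length and library size. Vector replicate 3 and KO2 replicate 3 stood apart within their groups. Pairs with either of them gave a chi-square per degree of freedom of 39.1 to 46.4, and the other pairs within a group 2.35 to 6.21. For some of the results that rest on these libraries, though not for all, values without them are given too. Of 10 lung epithelial markers only KRT8 and KRT18 had a mean of 1 FPKM or more in each group, while no group mean of NKX2-1, SFTPB, EPCAM or CDH1 exceeded 0.0716. The list summed to 67.1 to 92.2 FPKM in Vector, 426 to 490 in KO1 and 102 to 121 in KO2, with SFTPC and SLC34A2 at 0 in Vector and KO1. No marker of endothelial cells (7 genes), fibroblasts (6) or leukocytes (5) had a mean of 1 FPKM in any group. Their summed levels ran from 0.239 to 0.784, 0.0479 to 0.853 and 0.027 to 0.293 FPKM. The 6 neuronal and neuroendocrine markers summed to 2.33 to 4.96 FPKM in Vector, 1.3 to 1.71 in KO1 and 3.39 to 4.65 in KO2, with CHGA at 0 in KO1. The part of these marker differences in the results was not tested.

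The 250 bases before the annotated start are shown for 5 starts, because their genes range from 0 to 68.3 FPKM in group means. The sequences are from RefSeq (GRCh38.p14, the build hg38), which listed starts for 7 of the 10 members and none here for NRP1, SEMA3A and VEGFA. PLXNA1, PLXNA2 and PLXNA3 are 3 members of 1 receptor family with very different levels. NRP2 differed between the clones, and SEMA3C was the most abundant of the 3 member semaphorins. Capitals mark the GC box GGGCGG or its complement CCGCCC, the letters bound by SP and KLF factors. The windows are PLXNA1 at chr3:126982865-126983114 (plus strand), PLXNA2 at chr1:208244385-208244634 (minus), PLXNA3 at chrX:154458031-154458280 (plus), NRP2 at chr2:205682251-205682500 (plus) and SEMA3C at chr7:80922390-80922639 (minus). In GENCODE 29 the NRP2 window lies inside the NRP2 gene with 1 base in an exon. The PLXNA2, PLXNA3 and SEMA3C windows lie close before the start of their gene. The PLXNA1 window ends at 126983114, well before the GENCODE start at 126988594. Whether it serves the gene as measured was not tested.
PLXNA1: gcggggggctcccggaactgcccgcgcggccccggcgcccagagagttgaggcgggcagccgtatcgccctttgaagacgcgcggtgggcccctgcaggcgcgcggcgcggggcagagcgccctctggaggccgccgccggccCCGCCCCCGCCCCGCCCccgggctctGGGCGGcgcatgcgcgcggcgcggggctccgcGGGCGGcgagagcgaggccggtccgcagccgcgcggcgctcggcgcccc
PLXNA2: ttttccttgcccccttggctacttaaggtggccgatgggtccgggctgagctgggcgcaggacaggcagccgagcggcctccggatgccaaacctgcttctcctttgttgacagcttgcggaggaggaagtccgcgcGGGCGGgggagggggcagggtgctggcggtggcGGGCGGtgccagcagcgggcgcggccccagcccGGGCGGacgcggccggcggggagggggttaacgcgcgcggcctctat
PLXNA3: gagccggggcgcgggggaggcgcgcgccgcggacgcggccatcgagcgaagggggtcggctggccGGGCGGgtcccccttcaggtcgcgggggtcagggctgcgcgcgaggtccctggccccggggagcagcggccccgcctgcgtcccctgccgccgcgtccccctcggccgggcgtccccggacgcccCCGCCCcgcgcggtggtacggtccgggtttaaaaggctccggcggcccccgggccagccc
NRP2: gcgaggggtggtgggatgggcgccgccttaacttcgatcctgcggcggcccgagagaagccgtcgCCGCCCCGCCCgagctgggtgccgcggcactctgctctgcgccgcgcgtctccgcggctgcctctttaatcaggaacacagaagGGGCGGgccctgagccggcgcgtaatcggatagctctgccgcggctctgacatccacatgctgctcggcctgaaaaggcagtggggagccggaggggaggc
SEMA3C: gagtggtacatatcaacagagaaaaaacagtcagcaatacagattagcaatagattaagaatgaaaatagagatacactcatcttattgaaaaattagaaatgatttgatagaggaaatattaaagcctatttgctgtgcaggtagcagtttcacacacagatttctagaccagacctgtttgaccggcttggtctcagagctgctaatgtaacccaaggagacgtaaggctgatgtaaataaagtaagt

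The A plexin windows were alike in make-up although their genes were not alike in level. GC content was 84.4% for PLXNA1, 72.4% for PLXNA2, 82.8% for PLXNA3 and 70% for NRP2, against a median of 58% over 35116 RefSeq start windows of the same length. The GC box occurred 5, 3, 2 and 3 times, and in 42.6% of all windows at least once. The SEMA3C window held 36.4% GC and no GC box, whereas a second RefSeq start of SEMA3C, which lies in annotated exons, had 77.6% GC and 3 GC boxes. None of the 5 windows held the letters CCAAT (32.0% of all windows), TATAAA (10.7%), CACGTG (6.34%), ACGTG (18.5%, a core that CACGTG contains), TGANTCA (6.57%) or TGACGTCA (1.65%) on either strand. These are letter matches in short windows and were not measured as binding sites.

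NRP1, the neuropilin that pairs with SEMA3A and VEGFA, was the member that differed most between the groups. It lies on chromosome 10, 33177492 to 33336262 (hg38, minus strand, ENSG00000099250). NRP1 measured 0.459, 0.461 and 0.469 FPKM in the Vector libraries, 19.7, 19.4 and 18.6 in KO1, and 7.07, 7.46 and 9.66 in KO2. All 6 knockout libraries were above all Vector libraries, and all KO1 libraries were above all KO2 libraries. The KO1 mean was 41.6 times the Vector mean and the KO2 mean 17.4 times. The Vector value rested on 87 to 95 reads per library, the KO1 value on 3627 to 3640 and the KO2 value on 1440 to 1803.

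NRP2, the neuropilin that prefers SEMA3F (chromosome 2, 205681990 to 205798133, plus strand, ENSG00000118257), was high in KO1 only. It measured 0.254, 0.391 and 0.364 FPKM in Vector, 2.8, 2.96 and 2.66 in KO1 and 0.358, 0.438 and 0.471 in KO2. The KO1 libraries stood 8.34 times above Vector in the mean, and the KO2 libraries overlapped those of Vector. NRP2 entered the fit below through KO1 alone, since its mean over the other 6 libraries was 0.379 FPKM.

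**Figure D1:**
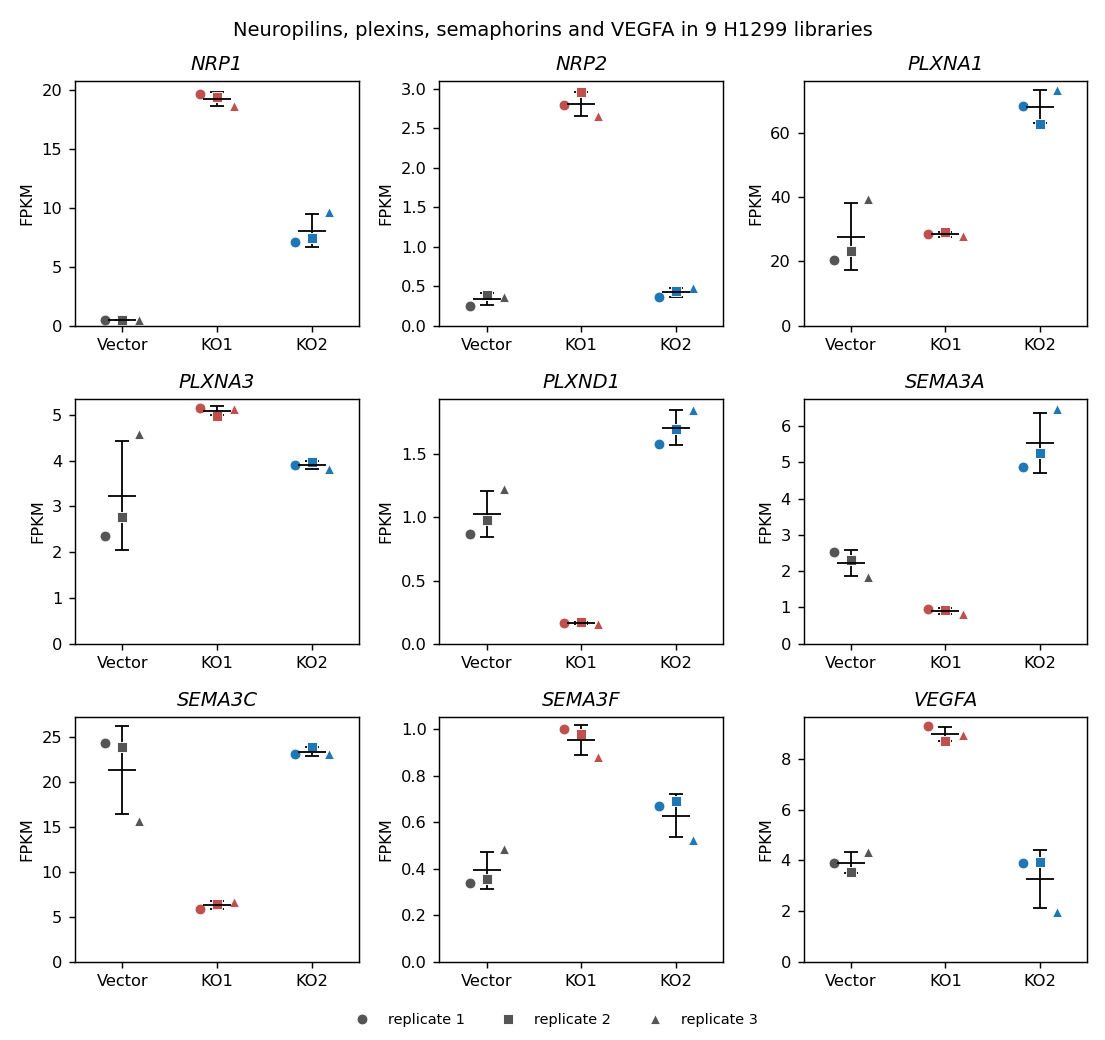
FPKM (vertical axes, linear from 0) of the 9 members with reads, by group. Symbols are single libraries by replicate number, and black lines are the group mean with its SD (n = 3). NRP1 sits near 0.46 in Vector, above 18 in KO1 and between 7.07 and 9.66 in KO2, while Vector replicate 3 stands apart for PLXNA1, PLXNA3 and SEMA3C and KO2 replicate 3 for VEGFA.

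Differences were fitted with limma on log2(FPKM + 1) over the 16426 genes whose mean reached 0.5 FPKM, and a gene was called when its p, adjusted by Benjamini-Hochberg, was under 0.05. "Rose" and "fell" are used only of called genes that are not members. This scale understates changes of low genes. In KO1 against Vector 8 of the 9 fitted members lay past this threshold, 5 higher and 3 lower, where 34.1% of all fitted genes were called (17.4% higher, 16.7% lower). In KO2 against Vector 4 lay past it, all higher, where the share was 27.9% (12.9% higher, 15.0% lower). In KO2 against KO1 7 lay past it, 4 higher and 3 lower, where it was 30.9% (14.5% higher, 16.4% lower). Libraries of both groups did not overlap for 8 members in KO1 against Vector (5 higher, 3 lower), beside 50.1% of all fitted genes (26.0% higher, 24.1% lower). In KO2 against Vector this held for 5 members, all higher, beside 39.0% (18.3% higher, 20.7% lower). In KO2 against KO1 it held for 9 members, 4 higher and 5 lower, beside 53.6% (24.8% higher, 28.8% lower). The members were chosen on these comparisons, so nothing is read from these counts. PLXNA2 was not fitted. The Vector means of NRP1, NRP2 and SEMA3F lay under the minimum, so these entered through the knockout libraries. The median over the fitted members was 0.49, 0.25 and -0.26 in the 3 comparisons, and over all fitted genes 0.01, -0.0049 and -0.02. The called genes of KO1 against Vector were 2865 higher and 2744 lower, and with scaling by the sum of FPKM 2104 and 3244. Those of KO2 against KO1 were 2386 higher and 2693 lower, and with that scaling 2894 and 1839. KO1 and KO2 share the Vector libraries, so their values against Vector are not independent of each other.

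NRP1 stood at 3.79 (SE 0.11) in KO1 and at 2.62 (SE 0.11) in KO2 against Vector, and was lower in KO2 than in KO1 by a log2 difference of -1.17 (SE 0.11). The 37 fitted genes within 5 Mb of NRP1 had medians of -0.14 and -0.13 against Vector. On the scale of recovered reads (limma-voom), which is not compressed at low levels, the NRP1 differences were 5.37 and 4.07. NRP2 stood at 1.51 (SE 0.10) in KO1, beside neighbours at 0.11, and at 0.09 (95% interval -0.14 to 0.32) in KO2. The difference of NRP2 between the clones was -1.42. An antisense gene shares 4.87% of the NRP1 exon bases and another 1.06% of those of NRP2. These measured at most 0.234 and 0.0755 FPKM in a group mean.

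**Figure D2:**
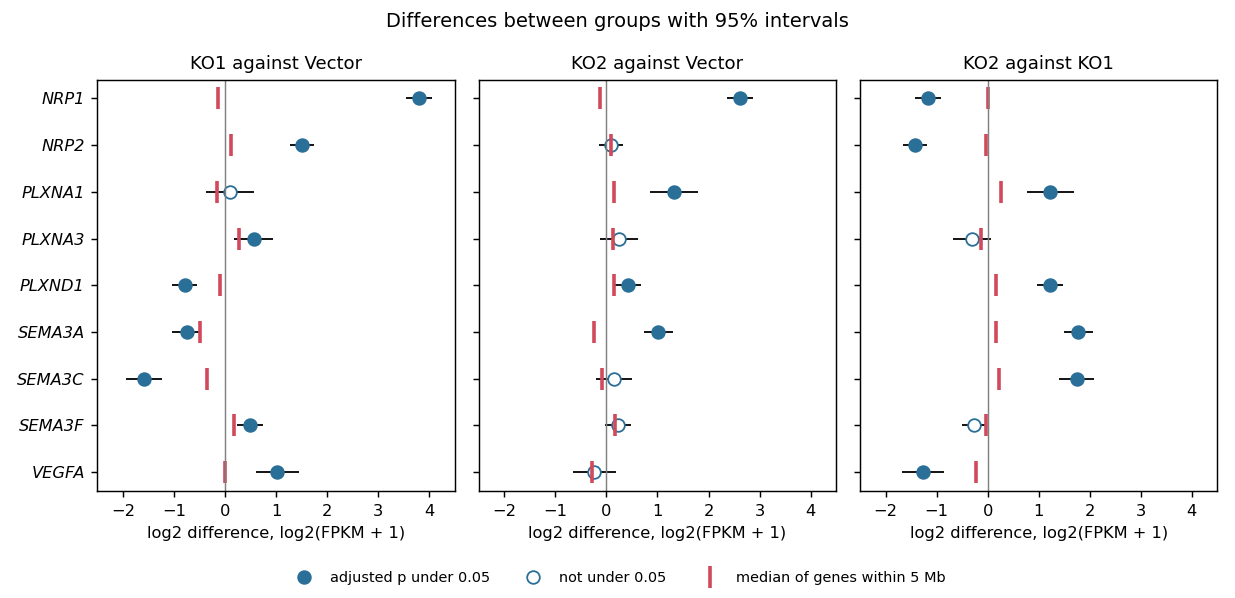
Log2 differences on the log2(FPKM + 1) scale (horizontal axes) for 9 members in 3 comparisons, as points with 95% intervals from the limma fit. Filled points lie past the adjusted threshold, as a description, and red ticks give the median of fitted genes within 5 Mb. NRP1 lies at 3.79 and 2.62 against Vector with its neighbours near 0.

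Among the plexins, PLXNA1 and PLXND1 were higher in KO2 than in KO1, and PLXNA2 had no reads. PLXNA3 was lower in every KO2 library than in KO1, at -0.31 (SE 0.17, interval -0.69 to 0.06), and not past the threshold. That fit takes its spread from the Vector libraries too. PLXNA3 was past the threshold in 4 of 21 other settings. They include the fit of KO1 and KO2 alone (SE 0.06) and leaving out Vector replicate 3. PLXNA1, an A plexin that works with either neuropilin (chromosome 3, 126988594 to 127037392, plus strand, ENSG00000114554), had the highest mean of the members in each group. In Vector this rests on replicate 3, without which SEMA3C (24.1) was above PLXNA1 (21.8). It measured 20.5, 23.1 and 39.6 FPKM in Vector, 28.4, 29.3 and 27.8 in KO1 and 68.4, 63 and 73.4 in KO2. Every KO2 library was above every other library, and the KO1 values lay inside the Vector range. PLXNA1 stood at 1.32 (SE 0.21) in KO2, with neighbours at 0.15, and at 0.09 (interval -0.37 to 0.56) in KO1. Vector replicate 3 was the highest Vector value. Without it PLXNA1 stood at 0.37 in KO1 and passed the threshold there, and without KO2 replicate 3 as well it stood at 1.55 in KO2. PLXNA1 was 44.8 to 84.4 times NRP1 in Vector libraries by FPKM, 1.44 to 1.51 times in KO1 and 7.6 to 9.67 times in KO2.

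PLXNA3, a second A plexin (chromosome X, 154458281 to 154477779, plus strand, ENSG00000130827), measured 2.35, 2.77 and 4.58 FPKM in Vector, 5.16, 4.97 and 5.13 in KO1 and 3.91, 3.98 and 3.81 in KO2. The KO1 libraries were above all others, and KO2 lay inside the Vector range. PLXNA3 stood at 0.56 (SE 0.17) in KO1, beside neighbours at 0.28. It was past the threshold there, but not in 9 of 21 other settings. They include leaving out Vector replicate 1, Vector replicate 2 or any KO1 library, scaling by the sum of FPKM and subtracting the neighbours' median. Without Vector replicate 3 PLXNA3 was at 0.78 in KO1 and 0.46 in KO2, both past the threshold. The gene LAGE3 on the other strand shares 11 bases (0.0939%) of its exons. PLXNA2 (chromosome 1, 208022242 to 208244320, minus strand, ENSG00000076356) was listed at 0 in all 9 libraries. A count of 0 allows up to 3 reads per library, or 0.0136 FPKM for PLXNA2, for counting error only.

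PLXND1, the plexin that SEMA3E can bind without a neuropilin (chromosome 3, 129555175 to 129606818, minus strand, ENSG00000004399), stood on opposite sides of Vector in the clones. It measured 0.867, 0.983 and 1.23 FPKM in Vector, 0.167, 0.171 and 0.158 in KO1 and 1.58, 1.7 and 1.85 in KO2. No library of any group overlapped another group. The KO1 value rested on 26 to 27 reads per library. PLXND1 stood at -0.79 (SE 0.11) in KO1, where the Vector mean was 6.21 times the KO1 mean, and at 0.42 (SE 0.11) in KO2. Neighbours had medians of -0.09 and 0.14. The KO2 value was past the threshold except in 5 of 20 other settings: the fit of KO2 and Vector alone, neighbours subtracted and leaving out Vector replicate 1, Vector replicate 2 or KO2 replicate 2.

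The class 3 semaphorins SEMA3A and SEMA3C were lowest in KO1. Both lie on chromosome 7 within 5 Mb of each other, so each counts among the neighbours of the other. The part of their shared region in these values was not tested. SEMA3A, the collapsin that turns growing axons away (chromosome 7, 83955777 to 84492724, minus strand, ENSG00000075213), measured 2.54, 2.3 and 1.83 FPKM in Vector, 0.97, 0.919 and 0.821 in KO1 and 4.87, 5.26 and 6.47 in KO2. The 3 groups did not overlap, and the clones lay on opposite sides of Vector. SEMA3A stood at -0.75 (SE 0.13) in KO1 and at 1.02 (SE 0.13) in KO2. Its 23 neighbours within 5 Mb had a median of -0.50 in KO1, and with that subtracted SEMA3A stood at -0.26 and was no longer past the threshold. In KO2 the neighbours stood at -0.25, and without Vector replicate 3 and KO2 replicate 3 SEMA3A stood at 0.83, past the threshold. Between the clones SEMA3A differed by 1.77 (SE 0.13).

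SEMA3C, a semaphorin that can signal through either neuropilin (chromosome 7, 80742538 to 80922359, minus strand, ENSG00000075223), measured 24.3, 23.9 and 15.6 FPKM in Vector, 5.83, 6.38 and 6.65 in KO1 and 23, 23.9 and 23 in KO2. Every KO1 library was under every other library, and KO2 lay inside the Vector range. SEMA3C stood at -1.59 (SE 0.16) in KO1, with neighbours at -0.35, and differed by 1.74 (SE 0.16) between the clones. In KO2 it stood at 0.15 (interval -0.20 to 0.50) against Vector. Vector replicate 3 was the lowest Vector value, and without it the SEMA3C difference was -1.78 in KO1 and -0.04 in KO2.

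SEMA3F, a semaphorin known for holding back vessel growth and cell spread (chromosome 3, 50155045 to 50189075, plus strand, ENSG00000001617), was low throughout. It measured 0.34, 0.355 and 0.483 FPKM in Vector, 1, 0.981 and 0.883 in KO1 and 0.669, 0.694 and 0.525 in KO2, on 27 to 77 reads per library. The groups did not overlap in FPKM, with Vector lowest and KO1 highest. Vector replicate 3 and KO2 replicate 3 each had 41 reads, so only library scaling sets these 2 apart. SEMA3F stood at 0.49 (SE 0.11) in KO1, past the threshold until the neighbours' median of 0.17 was subtracted. In KO2 it stood at 0.23 (interval -0.02 to 0.47) and was not past the threshold, although it was without both libraries that stood apart (0.32). The antisense gene SEMA3F-AS1 shares 2.28% of the SEMA3F exon bases and measured 0.619, 0.817 and 1.02 FPKM in the means of Vector, KO1 and KO2. The strand setting of the counting is not given in the sources used here, so some reads of one could be counted in the other.

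VEGFA, the growth factor of vessels that low oxygen induces (chromosome 6, 43770184 to 43786487, plus strand, ENSG00000112715), was high in KO1. It measured 3.91, 3.52 and 4.32 FPKM in Vector, 9.29, 8.73 and 8.93 in KO1 and 3.91, 3.95 and 1.96 in KO2. The KO1 libraries were above all others, and KO2 overlapped Vector. VEGFA stood at 1.02 (SE 0.19) in KO1, with neighbours at 0.00327, and at -0.24 (interval -0.66 to 0.18) in KO2. Without Vector replicate 3 and KO2 replicate 3 the KO2 value was 0.06, and the mean of the other KO2 libraries was 3.93 FPKM. The table gives 1 value per gene, so isoforms of VEGFA, NRP1 and NRP2, membrane-bound or secreted, could not be separated.

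The order of levels changed between groups, as FPKM compares genes per length. In Vector the means ran from PLXNA1 (27.8) and SEMA3C (21.3) through VEGFA (3.92), PLXNA3 (3.24), SEMA3A (2.22) and PLXND1 (1.03) to NRP1 (0.463), SEMA3F (0.393) and NRP2 (0.336). Without Vector replicate 3 SEMA3C (24.1) stood above PLXNA1 (21.8). With it the libraries of PLXNA1 and SEMA3C overlapped, as did VEGFA with PLXNA3, PLXNA3 with SEMA3A, NRP1 with SEMA3F and SEMA3F with NRP2. In KO1 the order was PLXNA1 (28.5), NRP1 (19.3), VEGFA (8.98), SEMA3C (6.29), PLXNA3 (5.09), NRP2 (2.81), SEMA3F (0.955), SEMA3A (0.903) and PLXND1 (0.165), and only SEMA3F and SEMA3A overlapped as neighbours in this order. In KO2 it was PLXNA1 (68.3), SEMA3C (23.3), NRP1 (8.07), SEMA3A (5.53), PLXNA3 (3.9), VEGFA (3.27), PLXND1 (1.71), SEMA3F (0.629) and NRP2 (0.422), with PLXNA3 and VEGFA overlapping. NRP1 thus moved from seventh in Vector to the second place in KO1 and the third in KO2.

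Summed over the members of each class, neuropilins were above and semaphorins under every Vector library in KO1. In KO2 all 3 member sums were above every Vector library. NRP1 plus NRP2 came to 0.712 to 0.853 FPKM in Vector, 21.3 to 22.5 in KO1 and 7.43 to 10.1 in KO2. NRP1 made up 54.1% to 64.4% of that sum in Vector, 86.8% to 87.6% in KO1 and 94.5% to 95.4% in KO2. The A plexins summed to 22.9 to 44.2 FPKM in Vector, 32.9 to 34.3 in KO1 and 67 to 77.2 in KO2, with PLXNA1 at 84.4% or more in every library. SEMA3A, SEMA3C and SEMA3F summed to 17.9 to 27.1 FPKM in Vector, 7.8 to 8.36 in KO1 and 28.6 to 30 in KO2. KO1 thus had the highest neuropilin sum and the lowest sum of these 3 semaphorins among the groups. SEMA3B, SEMA3D, SEMA3E and SEMA3G, also class 3, are not members and not in the sum. SEMA3E had means of 3.05 FPKM in Vector and 0.399 in KO2, so KO2 is placed above Vector for the member sum only. The whole class was not summed. SEMA3C was 8.55 to 10.4 times SEMA3A in Vector, 6.01 to 8.11 times in KO1 and 3.56 to 4.73 times in KO2.

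**Figure D3:**
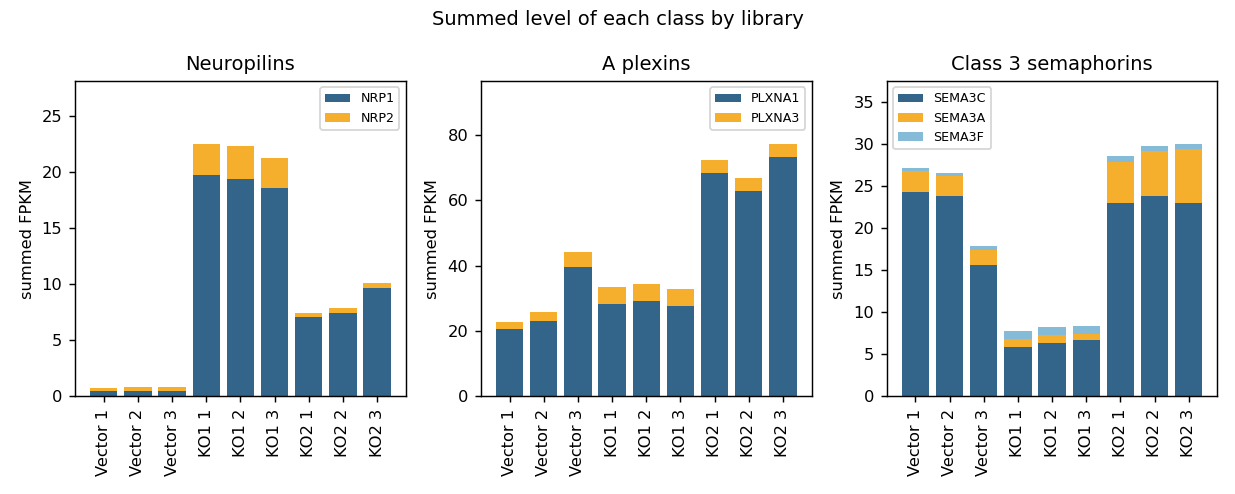
Summed FPKM (vertical axes, from 0) of the member neuropilins, A plexins and class 3 semaphorins in each of the 9 libraries, stacked by gene. PLXNA2 is at 0 and not drawn. Neuropilin bars reach 21.3 to 22.5 in KO1 while its semaphorin bars are 7.8 to 8.36.

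The genes closest in pattern to each member were found by the mean absolute difference of log2(FPKM + 1), each less its own mean, over the 9 libraries, among genes averaging 1 FPKM or more. For NRP1 they were COL13A1 (0.34) and MYO10 (0.35), which measured 1.09 and 3.26 FPKM in Vector, 17.4 and 30.2 in KO1 and 6.8 and 15.4 in KO2. For NRP2 they were ASB1 (0.07) and SH3RF1 (0.08), for PLXNA1 LMTK3 (0.07) and GSN (0.09), and for PLXNA3 FZR1 (0.03) and PIAS4 (0.04). For SEMA3A they were AK4 (0.04) and EOMES (0.08), for SEMA3C MAP7 (0.12) and ABCD2 (0.14), and for VEGFA UBE2C (0.09) and MIR503HG (0.10). PLXND1 and SEMA3F had means under 1 FPKM and were not matched.

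Genes around the members were tested in 6 lists of 62 genes, of which 42 were fitted. Against Vector, 15 of these rose and 7 fell in KO1, while 12 rose and 3 fell in KO2. Between the clones, 13 were higher and 6 lower in KO2. That is 52.4%, 35.7% and 45.2% of the fitted genes, beside 34.1%, 27.9% and 30.9% over all genes. The lists were chosen with earlier results of these data known, so nothing is read from these shares. The counts include SEMA3E in every comparison, although it entered the fit through Vector alone. The medians of the lists together were 0.21, 0.21 and 0.04.

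Of 17 other semaphorins 11 were fitted. SEMA3B and SEMA6B rose and SEMA4B, SEMA4D, SEMA4G and SEMA6C fell in KO1, while SEMA6B, SEMA4G and SEMA4B rose in KO2. SEMA6C was named after its values were seen, and its KO1 call (-0.48) was lost in 5 of 21 other settings, including leaving out Vector replicate 3 or KO1 replicate 2 or 3. SEMA3E, the ligand of PLXND1, had 3.15, 3.49 and 2.52 FPKM in Vector (437, 498 and 373 reads), 0, 0 and 1 read in KO1, and 0.37, 0.431 and 0.396 FPKM in KO2. SEMA3E entered the fit through Vector alone, the group where it is high, so its differences are given as a description only. It stood at -2.01 (SE 0.12) in KO1 and at -1.53 in KO2, with neighbours at -0.50 and -0.23. With 0, 0 and 1 read, the KO1 value lies close to the lowest that the scale allows. SEMA3E and its receptor PLXND1 were thus both under Vector in KO1, while in KO2 PLXND1 was above and SEMA3E under it. SEMA6B, a membrane semaphorin that signals through A plexins, measured 11 ± 5.34 FPKM in Vector, 20.6 ± 1.26 in clone KO1 and 47.5 ± 6.64 in clone KO2 (SD, n = 3). It rose by 2.10 in KO2 (SE 0.25, limma adjusted p = 0.000409) and by 0.94 in KO1 (limma adjusted p = 0.0197), the latter lost in 5 of 21 other settings, including leaving out Vector replicate 1 or 2 or KO1 replicate 1 or 2.

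SEMA4D, the ligand of PLXNB1, fell in KO1 from 1.05 ± 0.12 to 0.264 ± 0.0421 FPKM (SD, n = 3; log2 -0.70, limma adjusted p = 0.00177) and measured 0.976 ± 0.174 in KO2. SEMA4G measured 2.86 ± 0.781 FPKM in Vector, 1.6 ± 0.19 in clone KO1 and 4.75 ± 0.493 in clone KO2 (SD, n = 3), with limma adjusted p = 0.0176 and 0.0158 against Vector and 0.000496 between the clones. Its KO1 call was lost without KO1 replicate 3, and its KO2 call without Vector replicate 1, Vector replicate 2 or KO2 replicate 1. SEMA4B had 7.72, 4.62 and 11.7 FPKM in Vector, KO1 and KO2, with calls against Vector lost in 5 and 13 of 21 other settings and a difference between the clones of 1.17 (limma adjusted p = 0.00135). Those losses include leaving out any KO1 library for either call, and Vector replicate 1 or 2 or KO2 replicate 1 or 2 for the KO2 call. SEMA3B, on chromosome 3 like SEMA3F, rose by 0.65 in KO1 (limma adjusted p = 0.00371). SEMA4C, the most abundant semaphorin in the list without a call, measured 6.47, 9.59 and 8.36 FPKM. It stood at 0.55 in KO1 and 0.36 in KO2, and without Vector replicate 3 and KO2 replicate 3 at 0.80 and 0.77. Between the clones SEMA4B, SEMA4D, SEMA4G, SEMA6B and SEMA6C were higher in KO2. SEMA3B was lower, a call lost in 10 of 20 other settings, including leaving out any KO1 or KO2 library. As a description only, SEMA3E stood at 0.48 in KO2 against KO1, not past the threshold in 2 of 20 other settings.

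Of 5 other plexins only the B plexins PLXNB1 and PLXNB2 were fitted. PLXNB1, the SEMA4D receptor, measured 1.38 ± 0.407 FPKM in Vector, 2.53 ± 0.138 in clone KO1 and 3.5 ± 0.212 in clone KO2 (SD, n = 3). It rose in KO1 (log2 0.58, limma adjusted p = 0.00727) and KO2 (0.93, limma adjusted p = 0.000784). PLXNB2 rose in KO2 (log2 0.94, limma adjusted p = 0.00826) and stood at 0.24 in KO1. Without Vector replicate 3 and KO2 replicate 3 its KO1 value was 0.52. The call of PLXNB2 between the clones (0.70) was lost in 8 of 21 other settings, including leaving out any KO1 or KO2 library. PLXNA4, PLXNB3 and PLXNC1 stayed under 0.75 FPKM in every library.

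VEGFB and VEGFC, the 2 fitted of 4 other VEGF ligands, rose in both clones, and of 3 kinase receptors only FLT4 was fitted. VEGFB measured 24.3, 41.2 and 39.9 FPKM and VEGFC 5.05, 8.73 and 7.66 FPKM in Vector, KO1 and KO2. VEGFC, the lymphatic growth factor that also binds NRP2, rose by 0.70 in KO1 (limma adjusted p = 0.0087) and by 0.53 in KO2 (limma adjusted p = 0.0335), the KO2 call being lost in 8 of 21 other settings, including leaving out Vector replicate 2 or 3, KO1 replicate 2 or 3, or KO2 replicate 1 or 2. VEGFB rose by 0.79 and 0.74 (limma adjusted p = 0.0177 and 0.0263), beside neighbours at 0.21 and 0.29. With these subtracted neither VEGFB call held, and each was also lost without Vector replicate 1 or 2, the KO1 call without KO1 replicate 1 and the KO2 call without KO2 replicate 1 or 2. VEGFD and PGF were not fitted. FLT1 and KDR, the VEGFA receptors, reached at most 0.0136 and 0.0451 FPKM in any library, and FLT4, the VEGFC receptor, stood at 1.14, 1.41 and 1.53 FPKM with no call.

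None of the 4 fitted proteases that cut semaphorins was called against Vector. FURIN, the convertase that trims class 3 semaphorins, measured 11.9, 15.2 and 11.9 FPKM. It stood at 0.37 in KO1, and at 0.61 without Vector replicate 3 and KO2 replicate 3. ADAM10, a sheddase, was higher in KO2 than in KO1 (log2 0.60, limma adjusted p = 0.00753), a call lost with the neighbours' median of 0.26 subtracted.

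Of 27 signalling genes 22 were fitted. In KO1 10 rose and 2 fell, in KO2 5 rose and 2 fell, and between the clones 5 were higher and 5 lower in KO2. The CRMP proteins carry the SEMA3A signal to microtubules. Of their genes DPYSL3 measured 12.9, 13.1 and 15 FPKM in Vector, 19.5, 19 and 19 in KO1 and 55, 56.1 and 62.7 in KO2, with no overlap between groups. DPYSL3 rose by 0.46 in KO1 (limma adjusted p = 0.00668) and by 2.01 in KO2 (limma adjusted p = 1.86e-06). DPYSL5 rose from 0.685 ± 0.138 to 3.21 ± 0.199 FPKM in KO1 (SD, n = 3; log2 1.32, limma adjusted p = 7.21e-05) and to 3.91 ± 0.754 in KO2 (1.54, limma adjusted p = 4.22e-05). DPYSL2 rose in KO2 (log2 1.09, limma adjusted p = 0.000106) and stood at 0.08 in KO1. CRMP1 went the other way between the clones, from 8.49 ± 1.57 FPKM in Vector to 17.5 ± 0.785 in KO1 and 5.39 ± 0.733 in KO2 (SD, n = 3). It rose by 0.98 in KO1 (limma adjusted p = 0.000663) and fell by 0.56 in KO2 (limma adjusted p = 0.0141), the KO2 call being lost without KO2 replicate 2, in the fit of KO2 and Vector alone and with neighbours subtracted.

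FYN, a kinase that acts below A plexins in SEMA3A signalling, measured 7.91, 7.51 and 7.67 FPKM in Vector, 19.1, 18.7 and 18.1 in KO1 and 3.41, 3.51 and 3.9 in KO2. FYN rose by 1.18 in KO1 (SE 0.09, limma adjusted p = 1.31e-05), fell by 0.92 in KO2 (limma adjusted p = 8.6e-05) and differed by -2.10 between the clones (limma adjusted p = 7.85e-07). Its calls held in all 21 other settings. MRAS, a RAS-family GTPase, rose by 0.50 in KO2 (limma adjusted p = 0.00883) and fell by 0.35 in KO1 (limma adjusted p = 0.033), the KO1 call being lost in 8 of 21 other settings, including leaving out Vector replicate 1, KO1 replicate 1 or 2 or KO2 replicate 1 or 2. ARHGEF12, a RhoA exchange factor bound by B plexins, fell by 0.45 in KO1 (limma adjusted p = 0.0285), lost in 7 of 21 other settings, including leaving out Vector replicate 1 or 2 or any KO1 library. The fifth gene that rose in KO2, beside DPYSL2, DPYSL3, DPYSL5 and MRAS, was FARP2, an exchange factor below A plexins (log2 0.61, limma adjusted p = 0.0108), named after its values were seen. RHOA, the most abundant gene of the list, measured 245, 240 and 197 FPKM with no call. It stood at -0.31 in KO2, and at -0.48 without Vector replicate 3 and KO2 replicate 3. RAP1B, a substrate of plexins, was lower in KO2 than in KO1 (-0.51, limma adjusted p = 0.0131), a call lost with neighbours subtracted. The remaining calls of the list concern genes named after their values were seen. RRAS, FARP1, FARP2, ARHGEF11, MICAL2 and GIPC1 completed the 10 genes that rose in KO1, by 0.75, 0.75, 0.49, 0.47, 0.58 and 0.87, and the calls of FARP1 and MICAL2 held in all other settings. RRAS was lost in 14, FARP2 in 6, ARHGEF11 in 7 and GIPC1 in 3 of 21, each of them without Vector replicate 1 and without KO1 replicate 1. Between the clones GSK3B (0.36) and ARHGEF12 (0.41) were higher in KO2 and FARP1 (-0.54) and ARHGEF11 (-0.44) lower, but all 4 calls failed in 5 to 9 of 21 other settings, among them leaving out KO1 replicate 1.

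**Figure D4:**
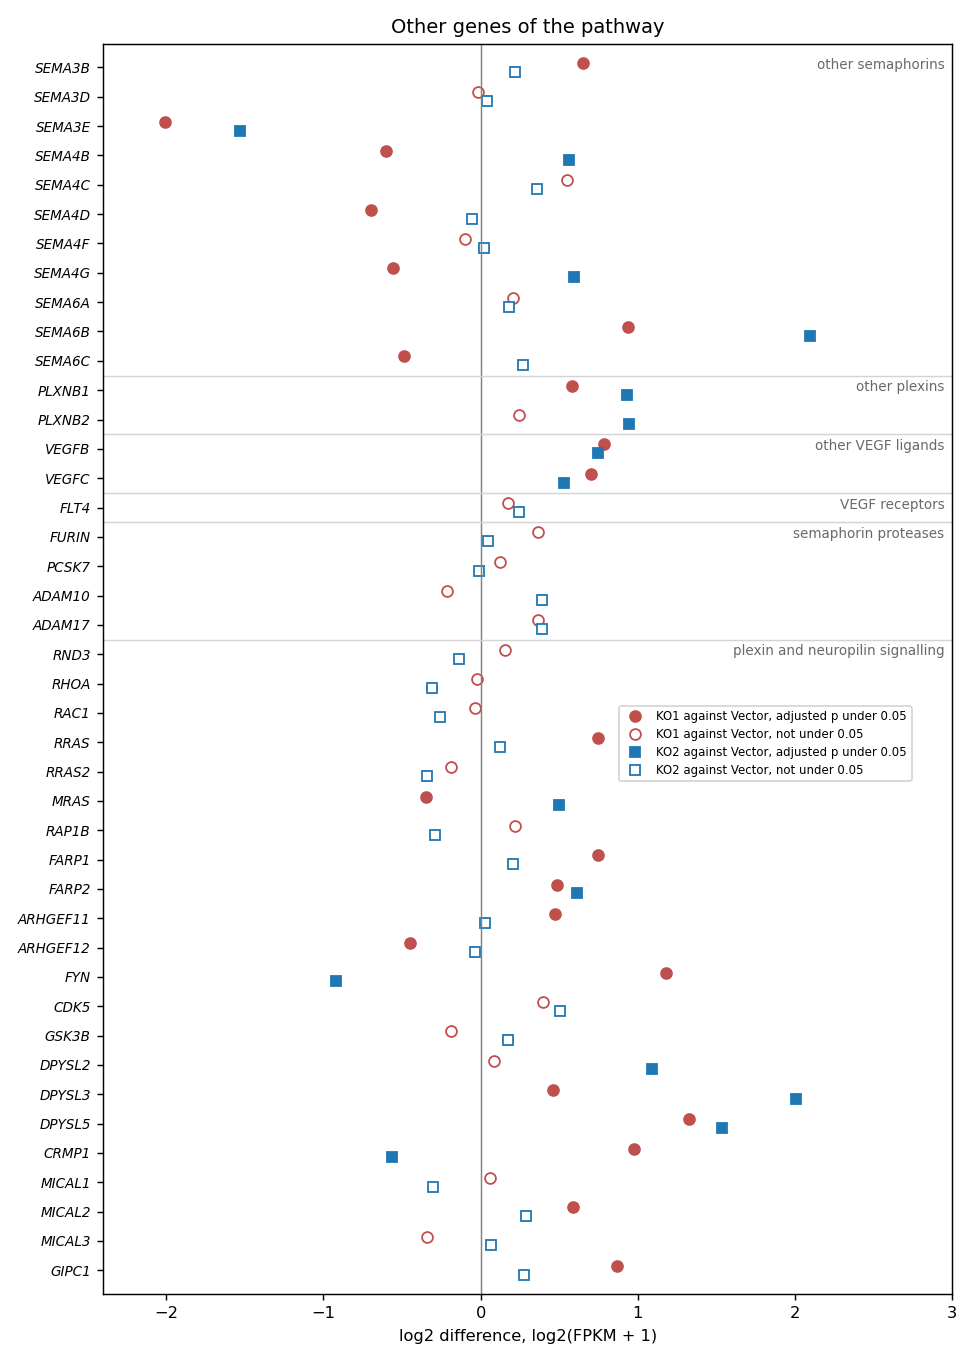
Log2 differences on the log2(FPKM + 1) scale (horizontal axis) of the 42 fitted pathway genes that are not members, for KO1 (circles) and KO2 (squares) against Vector; filled symbols had a limma adjusted p under 0.05. SEMA3E, which was fitted through Vector alone, lies lowest at -2.01 and -1.53. FYN and CRMP1 lie right of 0 in KO1 and left of it in KO2.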

How the data were processed

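RNA was measured by sequencing in 9 H1299 libraries, 3 each of Vector, KO1 and KO2, with TRIzol extraction and NEBNext Ultra libraries, per the labels' protocols. The authors deposited FPKM values for 58735 genes. CASAVA 1.6, HISAT2 2.0.5, featureCounts 1.5.0-p3 and hg38 are named in the submitters' processing notes, and the sources used here do not give the strand or multi-mapping settings. Positions and exon lengths are from GENCODE 29 (hg38), whose identifiers covered all genes. FPKM times exon length gave whole reads for 100% of values within 0.02 reads, so depth is known. The library size behind the deposited FPKM was 0.948 (KO1 replicate 1) to 1.08 (KO2 replicate 2) times the recovered reads. This ratio was lower in every KO1 library than in any Vector library.

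On the scale log2(FPKM + 1), the 16426 genes whose mean reached 0.5 FPKM were fitted with limma 3.58.1 (R 4.3.3, trended empirical Bayes), all 9 libraries in 1 fit with group as the only term, and Benjamini-Hochberg adjustment over all fitted genes within each comparison. The fit was also run on simulated data with the same spread for all genes and no library standing apart. The real data differ in this, so the simulation gives no error rate for them. The members and lists were chosen with earlier results of these data known. Named pathway genes are, per list and comparison, up to 3 called genes in each direction with the smallest adjusted p and the most abundant gene without a call. Alternatives covered scaling, filter, pseudocount, test, weights, block, neighbours within 5 Mb and libraries left out.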

Additional observations from a re-analysis of the deposited data

Results flagged for a closer look

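The libraries of the clones lay on opposite sides of Vector for PLXND1 and SEMA3A, with log2 differences of KO2 against KO1 of 1.22 and 1.77. The share of all fitted genes with this pattern was not counted. Non-overlap with Vector alone held for 50.1% of fitted genes in KO1 and 39.0% in KO2. The fit over all genes places both differences between the clones past its threshold. Against Vector, PLXND1 in KO2 was not past it in 5 of 20 other settings. SEMA3A in KO1 was not past it with the neighbours' median of -0.50 subtracted. The members were chosen on these comparisons, so the differences were not tested independently.

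Among the pathway genes 5 were called in opposite directions in KO1 and KO2 against Vector. A difference between the clones largely follows from that choice, since the same fit gave all 3 comparisons, so its adjusted p adds no support. Of the 5, only FYN kept its calls against Vector in all other settings. The share of all fitted genes called in opposite directions was not counted, so nothing is read from the number 5. SEMA4B (1.17), SEMA4G (1.15) and MRAS (0.85) were higher in KO2 than in KO1 (adjusted p = 0.00135, 0.000496 and 0.00049). FYN (-2.10) and CRMP1 (-1.54) were lower (adjusted p = 7.85e-07 and 6.02e-05).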

How the results depend on the processing

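No alternative reversed a called value of a member or of a named pathway gene. With library weights 10779, 10061 and 9764 of all genes were called for KO1 and for KO2 against Vector and between the clones, in that order throughout, and 35, 31 and 31 pathway genes. Without Vector replicate 3 and KO2 replicate 3 the counts were 9335, 8138 and 7834 of all genes, and 30 pathway genes in each of the comparisons that hold KO2. A fit of KO2 and Vector alone called 2963 genes, on fewer libraries. Leaving out 1 library gave 3705 to 7367, 3203 to 6531 and 3337 to 6756 genes. For pathway genes it gave 13 to 27, 11 to 25 and 13 to 26. The lowest pathway counts came without KO1 replicate 1, Vector replicate 2 and KO1 replicate 1, and the highest without Vector replicate 3. The cause was not tested. With the replicate block 4911, 3953 and 4428 genes were called. The numbers are not said to pair the libraries: correlations of deviations between same-numbered libraries ran from -0.202 to 0.142, and Vector replicate 2 was closest to replicate 3 of KO2 (0.251). With limma-voom on recovered reads 5971, 5007 and 5605 genes were called. A negative binomial test of these reads was listed too and not run, since the deposited values are FPKM. Depth limits PLXND1 in KO1, SEMA3F in every group and SEMA3E in the clones, which rest on few reads. NRP1 in Vector rested on 87 to 95 reads per library, and NRP2 on 58 to 92 in Vector and 88 to 109 in KO2.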
